A study of Salmo salar with 8 samples.

Results

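The genes described here are those whose probes on a salmonid microarray moved in opposite directions between Day 1 and Day 5 of culture of Atlantic salmon (*Salmo salar*) adherent head kidney leukocytes (HKLs). Members were chosen by their values on these same arrays: a gene symbol had to have at least 2 probes among those the study listed as differentially expressed, with a mean Day 5 minus Day 1 difference over the 4 fish above 0 for one probe and under 0 for another in the processed log2 ratios. Hemoglobins, immunoglobulin heavy chains, solute carriers, TRIM genes, cathepsins and 4 further symbols were left out by name, which removed 5 symbols with probes on both sides. Of 323 symbols with 2 or more listed probes, 22 were members, with 61 probes among them, and in 296 symbols all probes ran 1 way. Since the choice used the Day 5 against Day 1 contrast, and since every listed probe had already passed the study's own test of it, the changes of the members are a description, with no test of the split.

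The cells were primary leukocytes from the head kidney, the blood-forming organ of teleost fish, enriched on a Percoll gradient and left to adhere to the culture plate. Each of 4 fish gave a sample 24 h after seeding (Day 1) and another at 120 h (Day 5). All samples were untreated cells in L-15 medium with serum and antibiotic, and non-adherent cells were rinsed off. Every array held 1 sample in Cy5 and a pool of RNA from all samples in Cy3, with no dye swap, so a value is the log2 ratio of the sample over the common reference. The paper states that a further fish was hybridized and left out afterwards, and names a technical error in labelling. In another place it names Fish 5 as the exception to the grouping of samples by day when the changed probes were clustered. The paper describes the pool as made from all samples and the removal of that fish as later than hybridization, but it does not list the fish in the pool.

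Salmonid fish descend from an ancestor whose whole genome was duplicated after the duplication shared by teleosts, and many of their genes exist as a pair of similar copies, called ohnologues. A probe of 60 bases can match 1 copy, both copies, or a related gene, and a symbol given by sequence similarity can cover several loci. The probes of a symbol therefore need not be repeat measurements of 1 transcript. The 59 member probes for which a contig name was read came from 59 differently named contigs, the assembled transcript sequences from which the array was designed.

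Annotation rows were read for 12 of the 61 member probes, all of them on the side that was higher at Day 5. The contigs of the probes that were lower at Day 5 were not analysed here, so the 2 sides of a member could not be aligned with each other. Of the 12, 10 matched an Atlantic salmon transcript over their 60 bases, and all 10 led to a gene of the RefSeq annotation (assembly Ssal_v3.1, used for names only). The probe of *cyp7b1*, an oxysterol hydroxylase, matched LOC106599438, a locus other than the one RefSeq names *cyp7b1*. The *mmp13* probe C219R007 matched LOC106613110, a collagenase-like gene other than RefSeq *mmp13*, and the *timp2* probe C211R161 matched LOC106606432, a gene other than RefSeq *timp2* and *timp2a*. The *ndrg3* probe C172R012 matched *ndrg3b*. The *scin* probes C131R009 and C100R088 both matched LOC106588714, with identities of 100% and 98.3% over 60 bases. The *rdh12* probes C199R067 and C061R061 matched 1 locus, LOC106598856, and the 399 letters read from their contigs were identical. The 2 *gfi1b* probes on the higher side matched different loci: C208R126 matched *gfi1b*, and C099R123 matched LOC106607026, a *gfi1b*-like gene.

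Coding stretches of 5 of these contigs are printed because they show the contigs on which these higher-side probes were designed. They are given from 5′ to 3′ as in the array's contigs, and lie in the longest stretch free of stop codons in the letters read. Capitals mark the start codon in *scin* and *ndrg3*, and the stop codon of the open frame in the contig of C099R123, a probe with the symbol *gfi1b*. In *timp2* they mark the codons of the cysteine-X-cysteine start of the mature inhibitor, the part that binds the zinc of the enzyme. In *mmp13* they mark the codons of the cysteine switch, the part of the propeptide that keeps the enzyme inactive.
*scin* C131R009: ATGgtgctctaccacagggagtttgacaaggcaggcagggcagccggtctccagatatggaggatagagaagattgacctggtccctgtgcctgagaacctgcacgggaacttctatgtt
*timp2* C211R161: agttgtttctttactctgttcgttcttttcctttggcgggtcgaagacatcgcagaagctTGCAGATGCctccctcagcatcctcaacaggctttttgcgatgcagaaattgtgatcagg
*mmp13* C219R007: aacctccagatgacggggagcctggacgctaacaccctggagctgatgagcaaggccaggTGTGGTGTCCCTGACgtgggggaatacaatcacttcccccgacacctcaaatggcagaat
*ndrg3* C172R012: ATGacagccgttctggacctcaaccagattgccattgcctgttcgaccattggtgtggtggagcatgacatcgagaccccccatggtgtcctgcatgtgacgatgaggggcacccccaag
C099R123 (symbol *gfi1b*, protein match *pdcl*): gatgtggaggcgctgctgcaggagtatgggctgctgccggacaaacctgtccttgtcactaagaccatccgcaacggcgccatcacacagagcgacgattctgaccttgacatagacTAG
The last of these contigs was annotated by its protein match as *pdcl*, phosducin-like, and not as *gfi1b*, so that the symbol rests on the match of the 60-base probe alone.

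The scanner intensities were normalized anew and fitted with limma over all probes, with fish as a block. Median Cy5 intensities of the 8 arrays lay between 175.7 and 593.6, and 40.4% to 51.3% of an array's probes lay above its negative control limit, the mean plus 2 SD of 153 negative control spots. Both ends of the Cy5 range were arrays of Fish 1, Day 1 the lowest and Day 5 the highest. The Day 5 array of Fish 1 also had the lowest median Cy3 intensity, 90.8, against 206.1 to 275 on the other arrays. In the limma fit 784 of 38695 probes (2.03%) had an adjusted p under 0.05, with 1.09% of the probes higher and 0.936% lower at Day 5. The split between directions depended on the normalization: it was 422 higher and 362 lower with loess, and 338 higher and 567 lower with median centring of each array. The arrays lay on 3 slides, and only in Fish 1 and Fish 3 were both arrays on the same slide. Slide 3 held only the Day 5 arrays of Fish 2 and Fish 4, so in these fish day and slide cannot be told apart. With slide as a random block, the estimated correlation within slides was 0.92. With fish in the fit, this estimate rests on how the changes of Fish 2 and Fish 4 differ from those of Fish 1 and Fish 3. It is therefore not a separate measure of a slide effect. In bulk RNA, fewer cells of a type and less RNA per cell cannot be told apart.

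Of the 61 member probes, 59 passed the filters and were tested, 27 on the higher side and 32 on the lower side. All 59 had a fitted change in the direction that the processed values gave. The probes C151R049 of *fbf1* and C219R007 of *mmp13* had only 5 usable values each among the 8 arrays and were not tested, so that 21 of the 22 members had fitted changes on both sides. Past the threshold were 18 of the 59 probes, 7 higher and 11 lower, against 2.03% of all tested probes. Of the lower ones, *alas1* C241R048 and *vat1* C034R169 exceeded the negative control limit on none of the Day 5 arrays. By member, 1 had probes past the threshold on both sides, 9 on 1 side only and 12 on neither. The choice of members fixes these counts in part, and nothing is read from them. A gap, the highest minus the lowest fitted change of a member, was between 1.35 and 4.64 on the log2 scale over these 21 members, with a median of 2.61. Over the 285 other symbols with 2 or more tested probes the median range was 0.44, a contrast that the rule itself creates.

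The split was also seen within single fish, which is a description, since the rule used the mean over these same fish. In the normalized scanner values, 19 of the 22 members had a higher-side probe above 0 and a lower-side probe under 0 in every fish that gave values for both. Within the fish whose arrays shared a slide, this held for 19 of 20 members with values in Fish 1 and for 21 of 21 in Fish 3. It held for 18 of 19 members in Fish 2 and 20 of 21 in Fish 4. The exceptions were *gnb4* in Fish 1, *vat1* in Fish 2 and *cd9* in Fish 4. *Fbf1*, counted among the 19, had values on both sides in 1 fish only. The values of the 2 days did not overlap in 42 of the 59 tested member probes, against 11.3% of all tested probes. The choice of members in part creates this contrast, and nothing is read from it. Any mean above or under 0 satisfied the rule, and the probes it was applied to are those that the study listed as changed. The member probes nearest to 0 in the processed values were *ndrg3* C019R111 (-0.81), *gnb4* C019R160 (-0.85) and *cd9* C179R111 (-0.87). Among the symbols left out because their probes ran 1 way, the probes nearest to 0 were those of *d-se2* at 0.75, *mob1a* at 0.79 and *tr-u1ap* at -0.80.

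**Figure D1:**
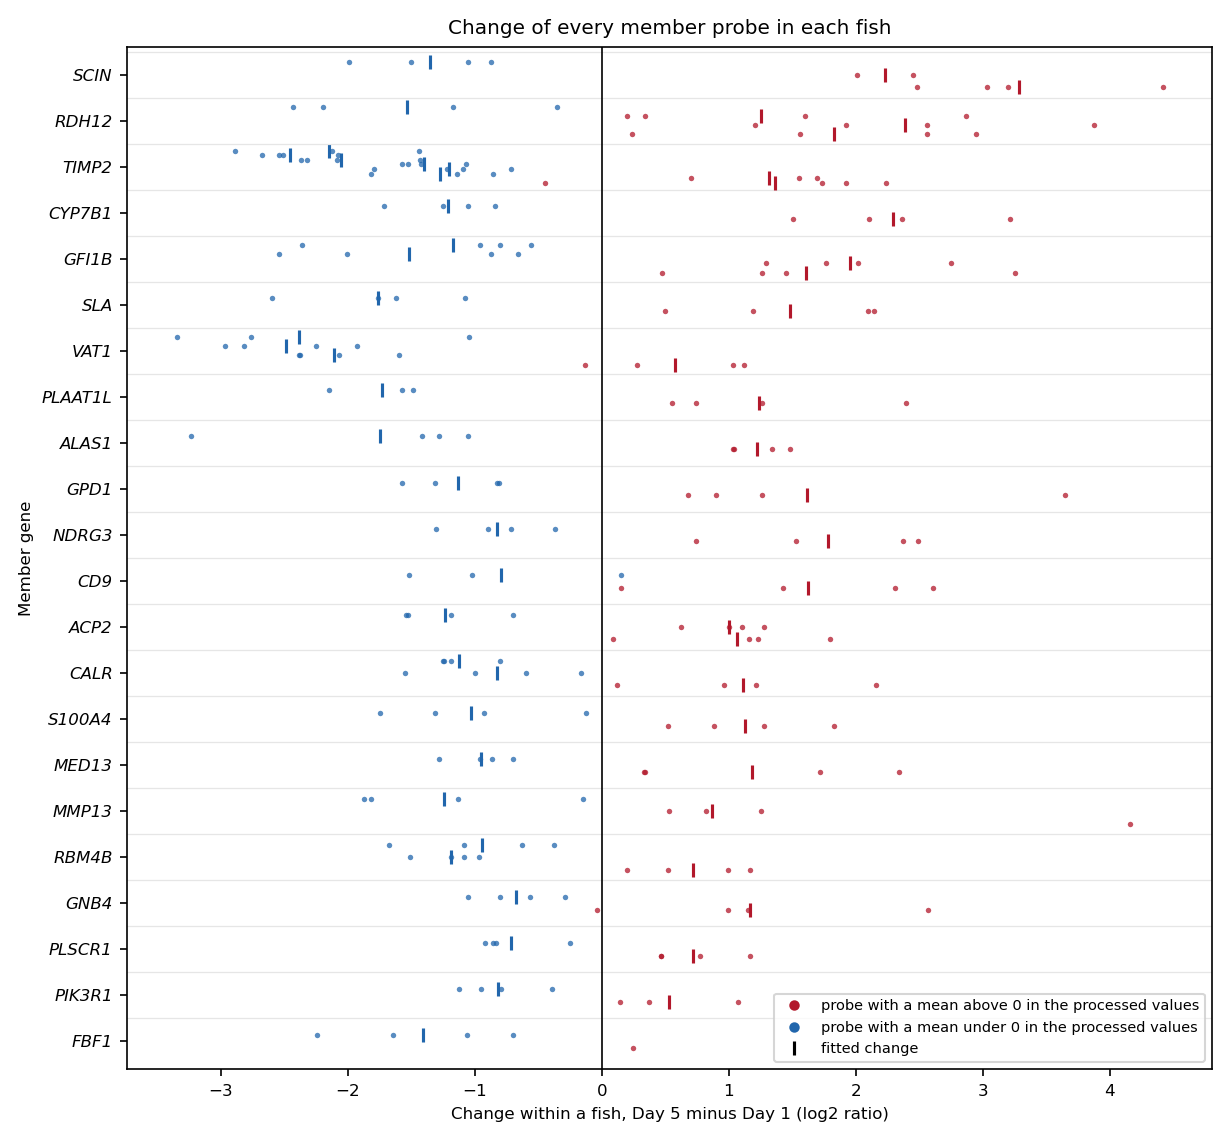
Day 5 minus Day 1 change (log2 ratio, x axis) of all 61 member probes in each of the 4 fish, by gene (y axis, ordered by gap). Dots are single fish, vertical ticks the fitted changes of the 59 tested probes, and colours the side a probe had in the processed values; apart from 4 dots, every fish lies on the side of its probe's colour.

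Among the genes of the cytoskeleton and of signalling, *scin* had the widest gap. It encodes scinderin (adseverin), a protein of the gelsolin family that severs and caps actin filaments. Its probe C131R009 had Day 1 log2 ratios of -3.84, -1.09, -2.27 and -1.81 in Fish 1 to Fish 4 and Day 5 log2 ratios of 0.58, 2.11, 0.22 and 1.23. All Day 5 values were above 0 and all Day 1 values under -1, with a fitted change of 3.29 ± 0.35 (log2, SE). The second probe on the same locus, C100R088, had 6 usable values and a fitted change of 2.23 ± 0.46, which rested on Fish 1 and Fish 3 only. In contrast, C119R154 went from 1.07, 0.45, 1.15 and 0.058 in Fish 1 to Fish 4 at Day 1 to -0.43, -0.42, -0.84 and -0.99 at Day 5, a fitted change of -1.35 ± 0.32. C131R009 exceeded the negative control limit on 2 of the 4 Day 1 arrays, and C119R154 on 2 of the 4 Day 5 arrays. For both outermost probes the days did not overlap, and *scin* was the 1 member with probes past the threshold on both sides. Its lower-side call (limma adjusted p = 0.0498) rested on every fish: without Fish 1, 2, 3 or 4 in turn that probe was no longer past the threshold, with adjusted p of 0.105, 0.0612, 0.259 and 0.135.

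Src-like adaptor, *sla*, is known in mammals to dampen antigen receptor signalling in lymphocytes. Its higher-side probe C129R009 read -1.78, 0.46, -0.20 and -0.34 in Fish 1 to Fish 4 at Day 1 and 0.31, 0.96, 0.99 and 1.80 at Day 5, and the ranges of the days overlapped through Fish 2 at Day 1. The lower-side probe C259R114 read 0.90, 0.17, 0.25 and 0.14 in Fish 1 to Fish 4 at Day 1 and -1.70, -0.91, -1.37 and -1.63 at Day 5, with the days apart. The fitted changes were 1.48 ± 0.35 and -1.77 ± 0.33.

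*Cd9* encodes a tetraspanin of the cell surface. Probe C074R105 had Day 1 values of 0.043, -1.65, -1.36 and -1.30 in Fish 1 to Fish 4 and Day 5 values of 0.19, 0.96, 0.95 and 0.13, with Fish 1 nearly level between the days and a fitted change of 1.62 ± 0.40. For C179R111 the Day 1 values were 0.62 in Fish 1, 0.52 in Fish 3 and -1.11 in Fish 4, with no usable value in Fish 2, and the Day 5 values were -0.40, -0.12, -1.002 and -0.96 in Fish 1 to Fish 4. Its fitted change of -0.80 ± 0.41 used Fish 1, Fish 3 and Fish 4. The probe fell in Fish 1 and Fish 3 only, and the change in Fish 4 was 0.15. In these normalized values the days overlapped for this probe, and the lower side of *cd9* was not larger than the spread between fish. In the authors' processed log2 ratios, by which the members were chosen, the changes of C179R111 were -0.756, -0.955, -0.722 and -1.056 in Fish 1 to Fish 4. The sign in Fish 4 thus depended on the processing.

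The other signalling members were narrower. In *gnb4*, a beta subunit of heterotrimeric G proteins, the fitted changes were 1.17 ± 0.39 (C152R159) and -0.68 ± 0.30 (C019R160), and C152R159 was level in Fish 1 (-0.041). C152R159 exceeded the negative control limit on 1 of the 4 Day 1 arrays and on 2 of the 4 Day 5 arrays. C019R160 exceeded it on 2 of the 4 Day 5 arrays. In *pik3r1*, the regulatory subunit of class I PI3-kinases, the fitted changes were 0.53 ± 0.37 (C260R117) and -0.82 ± 0.30 (C228R059), the smallest gap among the members. C260R117 exceeded the negative control limit on 1 of the 4 Day 1 arrays and on 3 of the 4 Day 5 arrays. C228R059 exceeded the negative control limit on none of the Day 5 arrays. A probe in this position has no level well above background on that day, so the size of its fitted change is less certain. In *s100a4*, a calcium-binding protein, the fitted changes were 1.13 ± 0.32 (C200R164) and -1.03 ± 0.34 (C026R142).

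**Figure D2:**
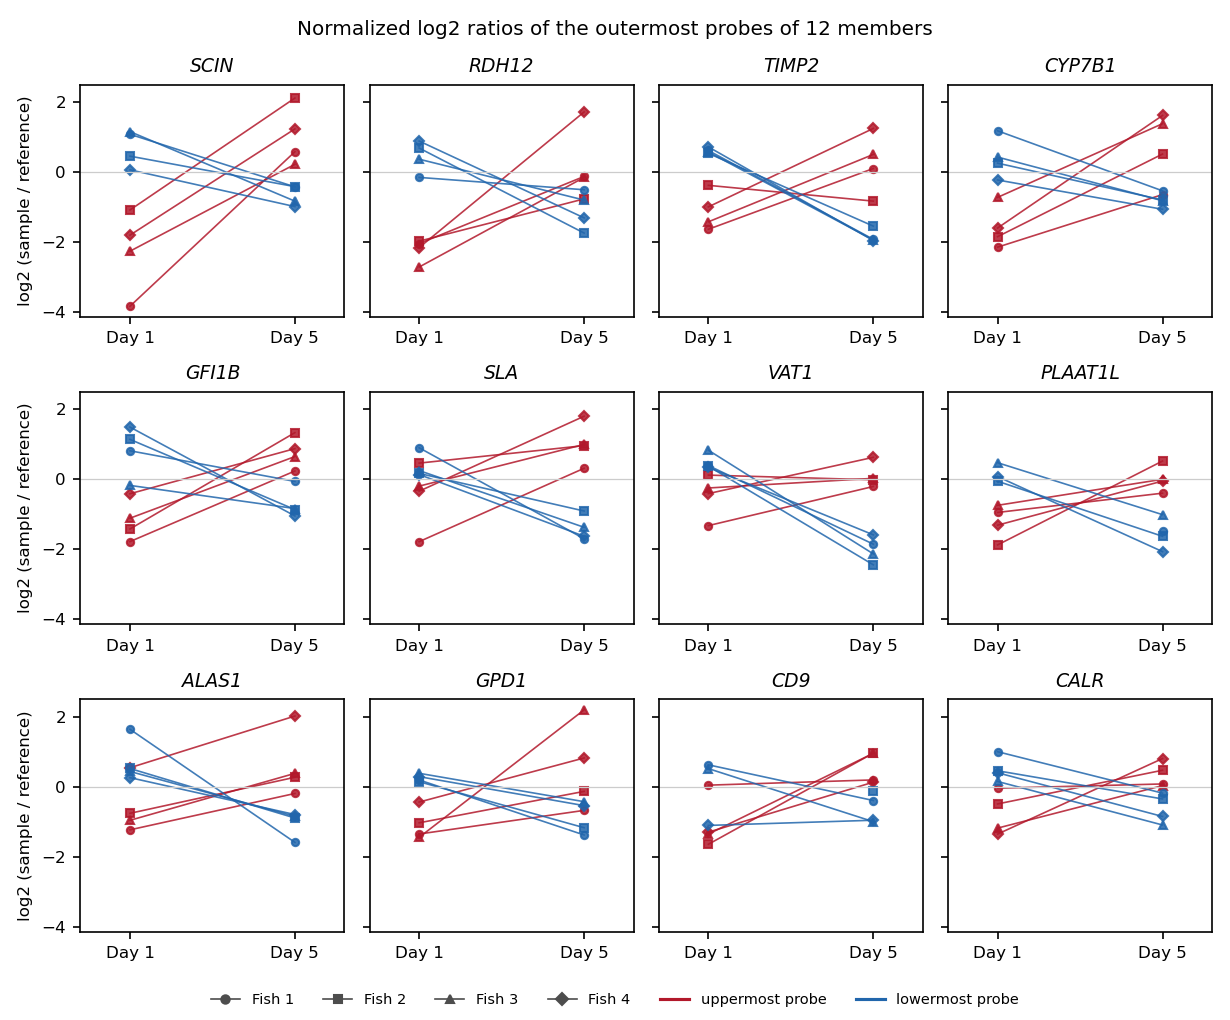
Normalized log2 ratio of sample over reference (y axis) at Day 1 and Day 5 for the probe with the highest and the probe with the lowest fitted change in 12 members. Each line joins the 2 samples of 1 fish; in *scin* the uppermost probe went up and the lowermost went down in all 4 fish, whereas in *timp2* the uppermost probe went down in Fish 2.

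Extracellular matrix genes were represented by *timp2* and *mmp13*. *Timp2*, an inhibitor of matrix metalloproteinases, had the most probes of any member, 2 on the higher side and 6 on the lower side. The lowermost probe, C156R092, had Day 1 log2 ratios of 0.61, 0.53, 0.57 and 0.71 in Fish 1 to Fish 4 and Day 5 log2 ratios of -1.93, -1.55, -1.95 and -1.96, with the days far apart. Its fitted change was -2.45 ± 0.30, and the other 5 lower-side probes had fitted changes from -2.15 to -1.21. The uppermost probe, C001R030, read -1.64, -0.39, -1.43 and -1.001 in Fish 1 to Fish 4 at Day 1 and 0.10, -0.84, 0.50 and 1.24 at Day 5. It exceeded the negative control limit on none of the Day 1 arrays and on 2 of the 4 Day 5 arrays. Its fitted change was 1.36 ± 0.42, with the opposite sign in Fish 2 (-0.45). The second higher-side probe, C211R161, whose sequence is printed above, had a fitted change of 1.32 ± 0.37 and was above 0 in each of the 3 fish with values on both days. C211R161 exceeded the negative control limit on 2 of the 4 Day 1 arrays.

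*Mmp13* encodes a collagenase. Its tested higher-side probe C137R132 had a fitted change of 0.87 ± 0.36 and its lower-side probe C224R138 one of -1.24 ± 0.35. C224R138 exceeded the negative control limit on none of the Day 5 arrays. The untested probe C219R007, the one with the cysteine switch codons, read -3.63 in Fish 1 and -1.44 in Fish 4 at Day 1 and 0.53 in Fish 1, 1.08 in Fish 2 and -0.69 in Fish 3 at Day 5. Only in Fish 1 could its days be compared, with a difference of 4.16. Among 14 tested probes of the list of metalloproteinases and their inhibitors, 1 was past the threshold and higher and 4 were past it and lower, all 4 of them *timp2* probes, with a median of -1.22. The probe past the threshold on the higher side was C239R132 of *mmp14*, a membrane-bound metalloproteinase, at 1.85 ± 0.32.

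**Figure D3:**
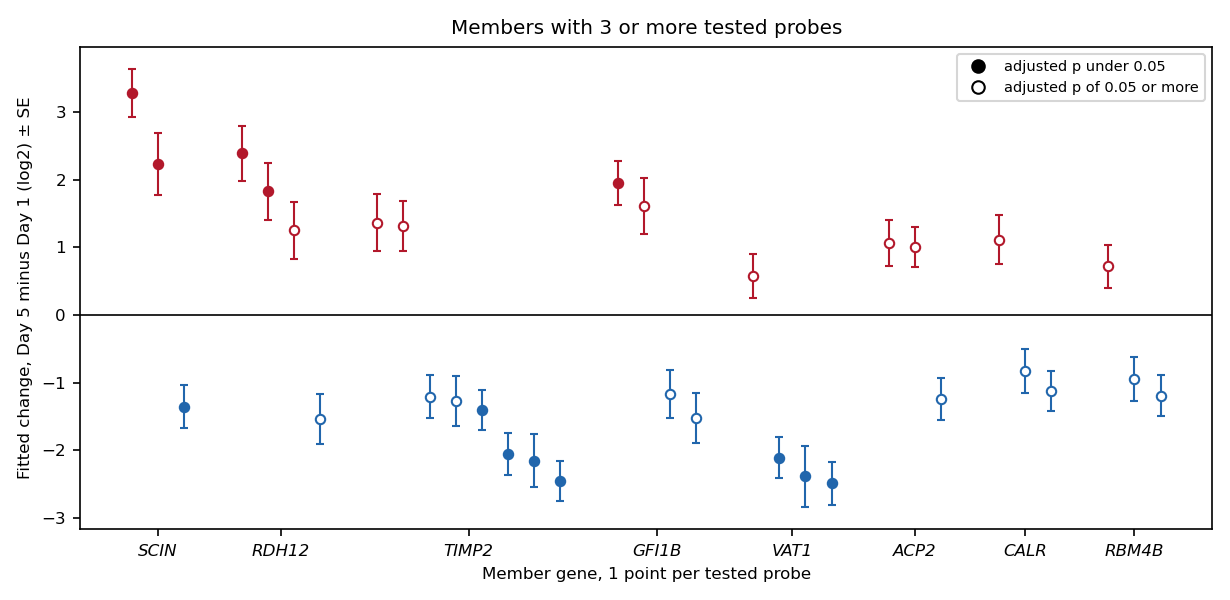
Fitted Day 5 minus Day 1 change with its standard error (log2, y axis) of each tested probe of the 8 members with 3 or more tested probes. Red points are higher-side and blue points lower-side probes, and filled points have an adjusted p under 0.05; the 6 lower-side *timp2* probes lie between -2.45 and -1.21.

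Among the blood cell genes, *alas1* encodes aminolevulinate synthase, the first enzyme of heme synthesis, in the form used by all tissues, whereas *alas2* is the erythroid form. The *alas1* probe C066R041 read -1.23, -0.76, -0.96 and 0.54 in Fish 1 to Fish 4 at Day 1 and -0.20, 0.27, 0.38 and 2.02 at Day 5, higher at Day 5 in each fish although the Day 1 value of Fish 4 lay above 3 of the Day 5 values. Probe C241R048 read 1.64, 0.52, 0.43 and 0.26 in Fish 1 to Fish 4 at Day 1 and -1.59, -0.90, -0.85 and -0.80 at Day 5, and all Day 5 values were under all Day 1 values. The fitted changes were 1.22 ± 0.30 and -1.75 ± 0.38. C241R048 exceeded the negative control limit on none of the Day 5 arrays. Of 14 tested probes in the list of heme synthesis enzymes, C066R041 was the only one with a fitted change above 0. In that list 10 probes were past the limma threshold and lower and 0 past it and higher (13 and 1 at an unadjusted p under 0.05). The median was -1.77, against -0.0040 over all tested probes. Symbols were read only for probes that the study had called, so the choice of probes in part creates this contrast. The 4 *alas2* probes had fitted changes from -1.97 to -1.33.

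*Gfi1b* encodes a zinc finger repressor that in mammals is needed for the formation of red cells and platelets. Probe C208R126 had log2 ratios of -1.78, -1.42, -1.11 and -0.41 in Fish 1 to Fish 4 at Day 1 and 0.24, 1.33, 0.65 and 0.88 at Day 5, with the days apart and a fitted change of 1.96 ± 0.33. C088R120 had 0.81, 1.14, -0.18 and 1.49 in Fish 1 to Fish 4 at Day 1 and -0.062, -0.87, -0.84 and -1.05 at Day 5, and the Day 1 value of Fish 3 lay below the Day 5 value of Fish 1. Its fitted change was -1.52 ± 0.37. The remaining probes, C099R123 and C224R100, had fitted changes of 1.61 ± 0.41 and -1.17 ± 0.35, and C224R100 exceeded the negative control limit on 2 of the 4 Day 5 arrays. The symbol *gfi1b* thus had 2 probes on each side, although the contig of C099R123 was annotated by its protein match as *pdcl*.

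Markers of other cells moved with the days. The mean log2 ratio of 32 erythroid marker probes lay between -0.22 and 1.66 at Day 1 and between -2.35 and -1.48 at Day 5. Of 38 tested erythroid marker probes, from 11 of the 18 genes listed, 32 were past the limma threshold and lower and 0 past it and higher (37 and 0 at an unadjusted p under 0.05; median -2.35). The genes were *alas2*, *ank1*, *cahz*, *epb41*, *gata1*, *hba1*, *hba4*, *hbb*, *rhag*, *slc4a1* and *tmod4*. The 1 erythroid probe fitted above 0 was of *hba4*, at 0.65 ± 0.42 and not past the threshold, and the other tested *hba4* probe was at -2.165 ± 0.33. *Hba4* was among the symbols with probes on both sides that were left out by name. Far more of the erythroid probes carried the symbol *tmod4* than any other, so the counts are not counts of genes. Macrophage markers (*csf1r*, *grn*, *lgmn* and *mrc1*, 4 of 11 genes listed) ran the other way: all 18 tested probes had fitted changes above 0, 11 past the threshold, with a median of 1.59. Their mean level lay between -1.39 and -1.10 at Day 1 and between 0.25 and 0.79 at Day 5. B cell markers were past the threshold and lower in 8 and higher in 1 of 17 probes (3 of 8 genes, median -1.47; levels from -0.052 to 0.37 at Day 1 and from -1.37 to -0.79 at Day 5). Most of these probes were of *ighm*, and the probe past the threshold and higher was of *cd22*, at 2.49 ± 0.34. Neutrophil markers were past it and lower in 2 of 4 probes (3 of 10 genes, median -1.47; levels from -0.15 to 0.31 and from -1.06 to -0.73). For thrombocyte markers (3 probes of 2 of 10 genes) the median was -1.05 and the levels ran from -0.28 to 0.94 at Day 1 and from -1.19 to -0.43 at Day 5. For T and NK cell markers (6 probes of 5 of 10 genes) the median was -1.26, with levels of 3 probes from -0.33 to 0.76 and from -1.13 to -0.32. No probe of these last 2 lists (0) was past the threshold in limma, whereas 3 of 3 and 6 of 6 were lower at an unadjusted p under 0.05. Symbols were read only for probes that the study had called on these samples, so the counts of all lists are not independent evidence of a direction. The part of these cells in the change of any member was not tested.

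**Figure D4:**
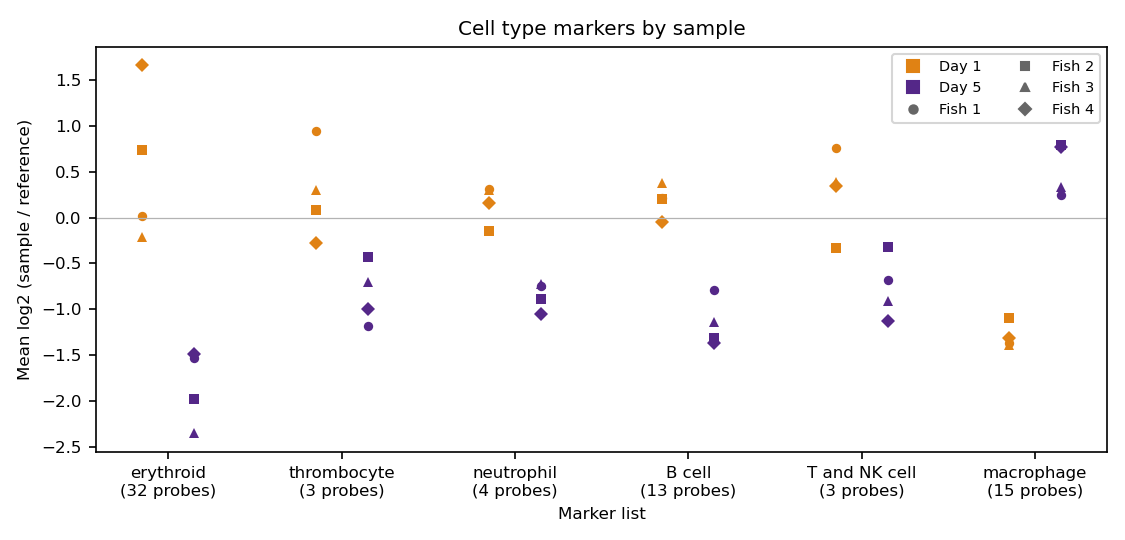
Mean log2 ratio of sample over reference (y axis) over the tested marker probes with a value on all arrays, by marker list (x axis), in each of the 8 samples. Day 1 and Day 5 do not overlap for erythroid, neutrophil, B cell, thrombocyte and macrophage markers, and macrophage markers are the list that was higher at Day 5.

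Several members are enzymes of lipid, sterol and retinoid metabolism. *Rdh12*, a retinol dehydrogenase, had 3 higher-side probes. C061R061 read -2.05, -1.98, -2.72 and -2.17 in Fish 1 to Fish 4 at Day 1 and -0.13, -0.77, -0.16 and 1.71 at Day 5, with Fish 4 highest at Day 5 and a fitted change of 2.39 ± 0.40. The probe on the same locus, C199R067, had a fitted change of 1.83 ± 0.42, and C152R066 one of 1.25 ± 0.42. C199R067 exceeded the negative control limit on 2 of the 4 Day 1 arrays. On the lower side, C193R024 read -0.16, 0.68, 0.36 and 0.88 in Fish 1 to Fish 4 at Day 1 and -0.51, -1.75, -0.81 and -1.32 at Day 5, and its fitted change was -1.54 ± 0.38.

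The *cyp7b1* enzyme hydroxylates oxysterols. Probe C066R125 gave -2.15, -1.85, -0.73 and -1.61 in Fish 1 to Fish 4 at Day 1 and -0.65, 0.51, 1.38 and 1.61 at Day 5, the highest Day 1 value, in Fish 3, being just under the lowest Day 5 value, in Fish 1. Its fitted change was 2.30 ± 0.34, and it exceeded the negative control limit on 2 of the 4 Day 1 arrays. The opposite probe, C195R058, gave 1.17, 0.25, 0.42 and -0.23 in Fish 1 to Fish 4 at Day 1 and -0.54, -0.80, -0.83 and -1.07 at Day 5, with a fitted change of -1.21 ± 0.31. It exceeded the negative control limit on none of the Day 5 arrays. Within each fish the 2 *cyp7b1* changes differed by 3.22 to 4.06 on the log2 scale.

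*Plaat1l* belongs to a family of phospholipases and acyltransferases. C152R136 read -0.95, -1.88, -0.75 and -1.31 in Fish 1 to Fish 4 at Day 1 and -0.40, 0.52, -0.0008 and -0.051 at Day 5, and C100R112 read -0.057 in Fish 2, 0.47 in Fish 3 and 0.076 in Fish 4 at Day 1 and -1.47, -1.63, -1.01 and -2.07 in Fish 1 to Fish 4 at Day 5. The days were apart for both probes. The fitted changes were 1.24 ± 0.36 and -1.74 ± 0.36.

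Glycerol phosphate dehydrogenase, *gpd1*, links glycolysis to the synthesis of glycerolipids. Its probe C041R149 read -1.35, -1.03, -1.45 and -0.44 in Fish 1 to Fish 4 at Day 1 and -0.68, -0.14, 2.20 and 0.82 at Day 5, where Fish 3 stood above the rest, with a fitted change of 1.62 ± 0.45. The lower-side probe C141R054 read 0.19, 0.14, 0.38 and 0.29 in Fish 1 to Fish 4 at Day 1 and -1.38, -1.17, -0.43 and -0.54 at Day 5, a fitted change of -1.13 ± 0.31. In Fish 3 alone the higher-side change was 3.65, against 0.68 to 1.26 in the other fish. In *plscr1*, a phospholipid scramblase, the fitted changes were 0.72 ± 0.30 (C019R079) and -0.71 ± 0.30 (C191R119). On 2 of the 4 Day 5 arrays C191R119 exceeded the negative control limit, and the same held for *gpd1* C141R054.

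Of the members of the vesicle, lysosome and endoplasmic reticulum, *vat1*, a vesicle membrane protein, had the lowest fitted change of the tested member probes. Its lowermost probe C077R152 had log2 ratios of 0.39, 0.37, 0.83 and 0.34 in Fish 1 to Fish 4 at Day 1 and -1.86, -2.45, -2.13 and -1.59 at Day 5, with a fitted change of -2.49 ± 0.32. The other lower-side probes, C204R077 and C034R169, had fitted changes of -2.11 ± 0.31 and -2.38 ± 0.46. C034R169 exceeded the negative control limit on none of the Day 5 arrays. The single higher-side probe C156R037 read -1.33, 0.12, -0.25 and -0.41 in Fish 1 to Fish 4 at Day 1 and -0.21, -0.015, 0.026 and 0.63 at Day 5. Its fitted change of 0.57 ± 0.33 was within the spread between fish, with overlapping days and a change of -0.13 in Fish 2.

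*Calr* encodes calreticulin, a calcium-binding chaperone of the endoplasmic reticulum. C220R150 read -0.044, -0.49, -1.19 and -1.36 in Fish 1 to Fish 4 at Day 1 and 0.077, 0.47, 0.030 and 0.80 at Day 5, and the change in Fish 1 was only 0.12. This probe exceeded the negative control limit on 2 of the 4 Day 1 arrays. C138R135 read 1.000, 0.45, 0.15 and 0.40 in Fish 1 to Fish 4 at Day 1 and -0.19, -0.35, -1.10 and -0.85 at Day 5. Their fitted changes were 1.12 ± 0.36 and -1.12 ± 0.30, and that of the third probe, C093R144, was -0.83 ± 0.33. None of these probes was past the threshold. C220R150 was the 1 probe with a fitted change above 0 among 7 tested probes of the chaperone list (5 of 12 genes, median -1.12). In that list 1 probe, of *calu* (calumenin), was past the threshold and lower, at -1.46 ± 0.31, and 0 were past it and higher in limma (6 lower and 1 higher at an unadjusted p under 0.05). In *acp2*, a lysosomal acid phosphatase, the fitted changes were 1.07 ± 0.34 (C128R022), 1.004 ± 0.30 (C045R112) and -1.24 ± 0.31 (C042R109).

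The remaining members act in the nucleus, at the centriole or in pathways less well described. *Ndrg3*, of the NDRG family, had fitted changes of 1.78 ± 0.35 for C172R012, the probe on *ndrg3b*, and -0.82 ± 0.31 for C019R111. *Med13*, a subunit of the Mediator kinase module, had fitted changes of 1.19 ± 0.38 (C186R032) and -0.95 ± 0.30 (C187R076), and the days overlapped for both. *Rbm4b*, an RNA-binding protein, had 0.72 ± 0.31 (C195R126), -1.19 ± 0.30 (C154R121) and -0.94 ± 0.32 (C166R027). For *fbf1*, a protein of the centriole, only C037R071 was tested, at -1.41 ± 0.34. C037R071 exceeded the negative control limit on 1 of the 4 Day 5 arrays. The other *fbf1* probe, C151R049, read -0.25 in Fish 1 and 1.48 in Fish 4 at Day 1 and 1.86 in Fish 2, 1.08 in Fish 3 and 1.73 in Fish 4 at Day 5, and only Fish 4 gave both days, with a difference of 0.25.

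The 2 further lists hold relatives of *pik3r1* and *scin*. Among 5 tested probes of PI3-kinase subunits (3 of 9 genes, median 0.53), both *pik3r3* probes were past the threshold and higher, at 1.60 ± 0.31 and 1.38 ± 0.29, and 0 were past it and lower in limma (2 at an unadjusted p under 0.05). The *pik3cg* probe, of a catalytic subunit, was at -1.11 ± 0.32 and not past it. Among 4 tested probes of the gelsolin family (2 of 7 genes, median 1.24), 2 were past the threshold and higher and 1 past it and lower, all of *scin*. The *gsn* (gelsolin) probe was at 0.26 ± 0.78.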

How the data were processed

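Adherent HKLs of 4 fish were measured on 8 two-colour arrays. The authors extracted signal and background intensity values per spot with ImaGene and deposited them without correction. The authors also deposited processed log2 ratios (background correction, loess, removal of poor spots, imputation) for 18108 probes. Symbols and contigs came from the study's supplementary tables, whose fold changes and q-values were not used. The members and lists were chosen with earlier results of these data known.

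Here intensities were background-corrected (normexp, offset 50) and loess-normalized with limma 3.58.1 in R 4.3.3. Control, flagged and low spots (not above local background plus 2 SD in both channels) had weight 0, the latter 2 kinds were set missing, and probes with more than 2 missing values were left out. The Day 5 minus Day 1 contrast was fitted with limma (lmFit, eBayes), fish entering as a fixed term, and p-values were adjusted by Benjamini-Hochberg (threshold 0.05). The pairing comes from the fish in the labels. Over probes, how far a fish lay from the mean of each day correlated between its days at -0.056, -0.075, 0.061 and 0.033 for Fish 1 to Fish 4. Only the limma fit was tested on simulated log2 ratios. Background correction, loess, the spot filter, slides and differences between fish were not simulated. The number of arrays limits precision, since a change rests on at most 4 differences within fish. All members are named. Values in every sample are given for *alas1*, *gfi1b*, *calr*, *cd9* and the 8 other members with the widest gap, for their outermost tested probes.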

Additional observations from a re-analysis of the deposited data

Results flagged for a closer look

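In 7 of the 108 groups of 4 log2 ratios tested over the member probes, 1 fish stood apart from the other 3 by Dixon's criterion for 4 values at the 95% level. Chance flags about 1 in 20 such groups. In *alas1* C241R048 at Day 5, Fish 1 was at -1.59, with the others between -0.90 and -0.80. In *gnb4*, both probes were flagged at Day 5: Fish 2 was at 1.48 for C152R159 (others 0.028 to 0.091) and Fish 1 at -0.85 for C019R160 (others -0.20 to -0.098). In *sla* C259R114 at Day 1, Fish 1 was at 0.90 (others 0.14 to 0.25). In *timp2*, Fish 4 was at -1.48 for C192R108 at Day 5 (others -0.76 to -0.68), and Fish 2 was at -1.55 for C156R092 at Day 5 (others -1.96 to -1.93). In *vat1* C077R152 at Day 1, Fish 3 was at 0.83 (others 0.34 to 0.39). No cause of these values was tested.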

How the results depend on the processing

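In the authors' processed log2 ratios the signs were fixed by the choice of members (61 probes, 22 members). No fitted change of a tested member probe changed sign under the 11 alternatives that used the scanner intensities. These come from the same arrays, so the choice of members fixes these signs in part as well. With the spot filter that requires both channels above the negative controls, 49 member probes were tested and 15 members had both sides left. Under that filter some fitted changes were smaller: *vat1* C156R037 went from 0.57 to 0.071 and *calr* C220R150 from 1.12 to 0.54. Others were not, such as *gnb4* C019R160, which went from -0.68 to -0.69. Without a spot filter all 61 probes were tested and 22 members had both sides. The number of calls was less stable, and the cause was not tested. Over all tested probes it was 0 with plain subtraction (4217 at an unadjusted p under 0.05 in limma), 0 with no background correction (4393), 461 without a spot filter and 2676 with slide as a random block. That last setting gives more weight to Fish 1 and Fish 3, whose 2 arrays shared a slide, and also moved the fitted changes. Some became smaller in size and some larger. For example, *gfi1b* C088R120 went from -1.52 to -0.85 and *timp2* C246R156 from -2.15 to -2.78. With fish left out in turn the number of calls was between 335 (without Fish 4) and 750, and 382 without Fish 3. Members with a probe past the threshold on each side numbered 1 (*scin*), and 0 with plain subtraction, no background correction and no spot filter, 3 with median centring and with the processed log2 ratios, 4 with the stricter spot filter, and 6 with slide as a random block. *Scin* was among them in 3 of the 12 alternatives (median centring, no replicate block, slide as a random block) and not in the other 9. With no replicate block they numbered 4, and 918 probes in all passed. With fish left out in turn they numbered between 0 (without Fish 3, and without Fish 4) and 2 (*gfi1b* and *rdh12* without Fish 1, *sla* and *timp2* without Fish 2). Member probes past the threshold numbered 18, and from 0 (both background settings) to 36 (slide as a random block), with 11 without Fish 3 and 8 without Fish 4. Signal over background limits 6 member probes, which exceeded the negative control limit on no array of 1 of the days, and 38 of the 61 exceeded it on all 8.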
